A study of Mus musculus with 37 samples.

Results

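Markers of tuft cells were followed through 3 RNA sequencing experiments in which murine jejunal organoids were treated with vasoactive intestinal peptide (VIP). The markers were 8 genes taken by their symbols, Dclk1, Trpm5, Pou2f3, Avil, Alox5ap, Rgs13, Sh2d6 and Ltc4s, and all 8 had counts in each of the 3 count tables, which together list 31533 genes. Each gene was read on its own, and the counts of the 8 were also summed.

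Whole organoids from C57Bl/6 mice were left untreated (mice 1 to 3) or received 100 nM VIP for 72 h (mice 1 to 4). Lgr5-EGFP+ cells were sorted from organoids of Lgr5-EGFP-IRES-CreERT2 reporter mice, in which EGFP is driven from the Lgr5 locus of stem and progenitor cells, after no treatment or 100 nM VIP for 72 h (4 mice, both conditions in each). A further experiment sorted Lgr5-EGFP+ cells from organoids of 4 such reporter mice, untreated or with 100 nM VIP for 48 h, each without irradiation or after 6 Gy. All organoids came from male or female mice aged 6 to 12 weeks and grew in medium with EGF, Noggin and R-spondin. A mouse number marks 1 organoid line within its experiment, so 12 mice gave 31 samples. The cultures were grown from epithelium, and the sort selected EGFP, not tuft cells.

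Tuft cells are rare chemosensory cells of the intestinal epithelium. The transcription factor Pou2f3 specifies them, and a cascade like that of taste cells, ending in the cation channel Trpm5, lets them sense luminal parasites and microbes. They answer with interleukin 25, acetylcholine and cysteinyl leukotrienes, which activate type 2 immunity, and interleukins 4 and 13 in turn expand the tuft cell lineage. In this pathway Alox5ap, the 5-lipoxygenase activating protein, and Ltc4s, leukotriene C4 synthase, serve leukotriene synthesis. Dclk1 is a doublecortin-like kinase and the most used label of tuft cells in the mouse gut, Avil encodes the actin-binding protein advillin, Rgs13 a regulator of G protein signalling, and Sh2d6 a protein with an SH2 domain.

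In GENCODE M21 on GRCm38, Dclk1 lies on chromosome 3 (55242364 to 55539068), Trpm5 on chromosome 7 (143069153 to 143094642), Pou2f3 on chromosome 9 (43123939 to 43210369) and Avil on chromosome 10 (127000709 to 127020994). Alox5ap lies on chromosome 5 (149264767 to 149288153), Rgs13 on chromosome 1 (144138654 to 144177372), Sh2d6 on chromosome 6 (72513641 to 72521707) and Ltc4s on chromosome 11 (50236461 to 50238616). Trpm5 overlaps Tssc4, Avil overlaps Tsfm and Dclk1 overlaps Gm21954, all protein-coding genes of the opposite strand. Alox5ap, Dclk1 and Ltc4s overlap antisense genes, and Alox5ap also the rRNA gene n-R5s180 of the opposite strand. Dclk1 further overlaps Gm25132, Gm19817, Gm42607 and Gm42608 on its own strand. Whether strand was used in counting is not given in the sources used here, so reads from these overlaps cannot be assigned with certainty. Strand could not separate genes that overlap on the same strand. RefSeq promoter sequences of GRCm38.p6 were at hand for 6 of the 8 genes and were searched in the 250 bases before the start for 2 motifs of tuft cell factors. The octamer ATGCAAAT, bound by POU factors such as Pou2f3, was in 0 of the 6 genes on either strand, beside 1.81% of all 27025 genes with a promoter in the table. The PU box GAGGAA, bound by ETS factors of the Spib type, was in 2 of the 6, beside 25.9% of all genes. Dclk1 has a further promoter (chr3:55461478-55461727), which holds neither motif and is not printed. The promoters of Dclk1 and Avil that hold the PU box are printed with it in capitals, read on the other strand as TTCCTC. Those of Rgs13 and Sh2d6 (the latter inside the annotated gene), the genes with the lowest VIP fold changes in the non-irradiated cells of the irradiation experiment, hold neither motif and stand in lower case. The match is a description of letters, not of binding.
Dclk1, chr3:55242114-55242363, plus strand: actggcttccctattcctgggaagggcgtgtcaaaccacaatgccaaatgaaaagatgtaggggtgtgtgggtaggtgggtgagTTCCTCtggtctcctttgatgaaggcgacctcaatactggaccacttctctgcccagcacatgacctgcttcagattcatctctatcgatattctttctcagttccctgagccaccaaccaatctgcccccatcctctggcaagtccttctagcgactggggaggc
Avil, chr10:127000459-127000708, plus strand: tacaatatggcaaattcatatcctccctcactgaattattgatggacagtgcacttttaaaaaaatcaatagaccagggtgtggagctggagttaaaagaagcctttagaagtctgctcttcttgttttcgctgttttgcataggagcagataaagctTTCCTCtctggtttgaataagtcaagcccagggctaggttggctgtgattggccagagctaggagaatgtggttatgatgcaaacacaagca
Rgs13, chr1:144177373-144177622, minus strand: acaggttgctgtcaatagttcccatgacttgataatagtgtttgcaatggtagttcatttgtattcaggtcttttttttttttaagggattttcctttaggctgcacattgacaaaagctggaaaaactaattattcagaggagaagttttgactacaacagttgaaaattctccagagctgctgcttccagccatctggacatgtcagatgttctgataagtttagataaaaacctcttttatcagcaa
Sh2d6, chr6:72520037-72520286, minus strand: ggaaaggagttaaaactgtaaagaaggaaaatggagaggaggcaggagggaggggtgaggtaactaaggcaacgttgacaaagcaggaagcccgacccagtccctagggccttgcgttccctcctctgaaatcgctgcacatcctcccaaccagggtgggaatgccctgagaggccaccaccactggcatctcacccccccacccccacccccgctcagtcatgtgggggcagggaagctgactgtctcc

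The libraries capture the 3′ ends of polyadenylated transcripts and count unique molecular identifiers (UMIs), so that each captured molecule counts once whatever the length of its transcript. Whole-organoid samples held 3722716 to 6330404 UMIs, sorted cells 575242 to 1104126, and sorted cells of the irradiation experiment 1075715 to 1876729. Against these totals the markers were rare. Their 8 genes together gave 783 UMIs in whole organoids, 171 in sorted cells and 2329 in the irradiation experiment. Levels are given as CPM, the UMIs of a gene divided by all UMIs of the sample and scaled to a total of 1000000, and intervals as exact Poisson intervals at 95%, which cover counting error only. In whole organoids Ltc4s made up 26.3% of the summed UMIs, Rgs13 17.2% and Dclk1 13.9%. In the irradiation experiment Rgs13 made up 25.1%, Dclk1 20.4%, Sh2d6 13.8% and Pou2f3 3.95%. The leukotriene gene Ltc4s thus led in the organoids and Rgs13 in the more deeply counted sorted cells.

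Without VIP or irradiation, the summed markers stood at 24.4, 28.8 and 28.5 CPM in whole organoids of mice 1 to 3. In sorted cells of mice 1 to 4 they stood at 30.4, 46.3, 39.5 and 33.4 CPM. In the irradiation experiment the 4 samples without VIP or irradiation held 96.1, 77.7, 109.0 and 98.3 CPM. The ranges of the 3 experiments did not overlap, and both sorted sets lay above the whole organoids. Compartment, experiment and mice differ together here and cannot be told apart, so no test was made. Other transcripts that define tuft cells were at or near 0, of which a pair is given here, chosen after their counts were seen. The cytokine Il25 had 0 UMIs in whole organoids and in sorted cells and 4 in the irradiation experiment. The gustducin subunit Gnat3 had 0, 1 and 8 UMIs.

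**Figure D1:**
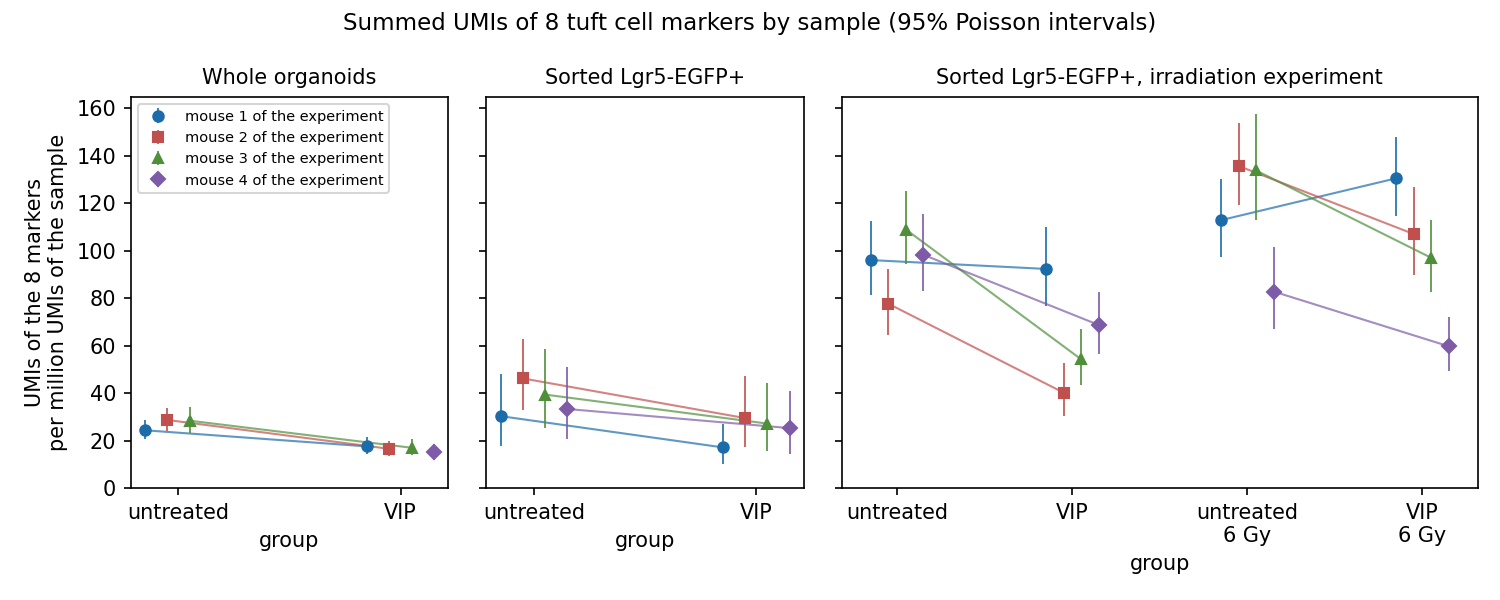
Summed CPM of the 8 tuft cell markers (vertical axis) in each group (horizontal axis), with 1 point per sample, 95% Poisson intervals, and lines joining untreated and VIP-treated samples of a mouse. The VIP point is the lower of its pair in 3 of 3, 4 of 4 and 4 of 4 mice without irradiation and in 3 of 4 after 6 Gy.

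The whole-organoid cultures were sequenced as technical libraries, and 1 of the 13 stood apart in these genes. The second library of VIP-treated mouse 3 held 70 marker UMIs, or 28.6 CPM (22.3 to 36.1). The 5 untreated libraries ranged from 22.6 to 36.0 CPM and the other VIP libraries from 9.78 to 19.96. The first library of the same culture had the lowest value of all, 38 UMIs or 9.78 CPM (6.92 to 13.4). The level in the second library was therefore within the untreated range, and the intervals of this pair of libraries did not overlap. The goblet cell transcript Clca1, which is higher in VIP-treated organoids, was at 52.3 CPM in that library and at 40.2 to 60.9 in the untreated libraries, and at 172.9 to 324.9 in the other VIP libraries. Results for whole organoids rest on the sum of both libraries, and the sum and the tested markers are also given without this one.

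**Figure D2:**
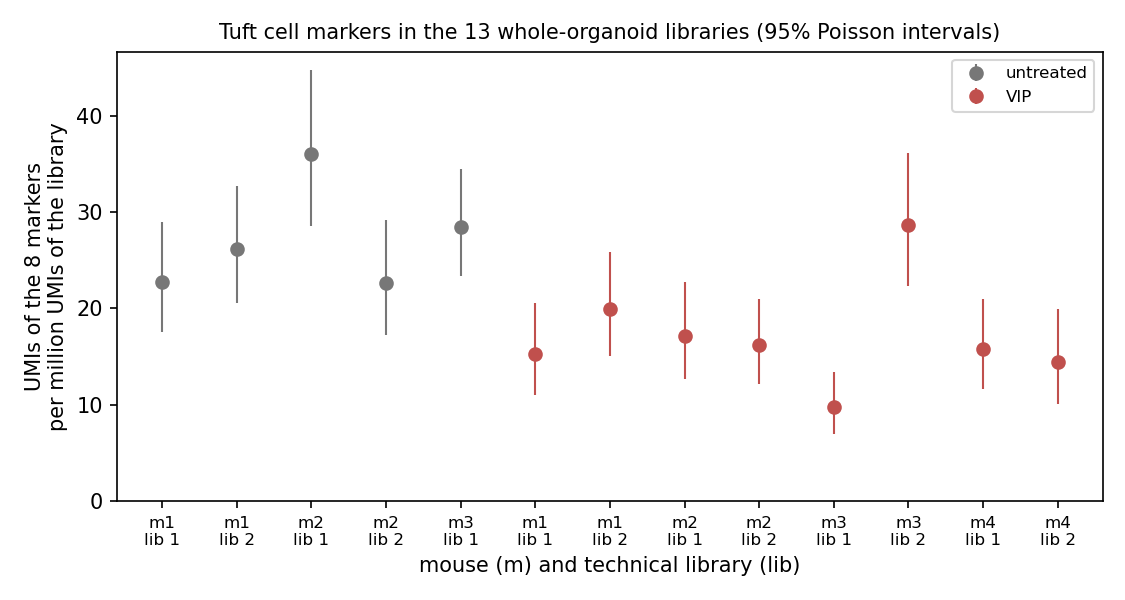
Summed CPM of the 8 tuft cell markers, scaled within each library, (vertical axis) in each of the 13 technical libraries of whole organoids (horizontal axis), untreated in grey and VIP-treated in red, with 95% Poisson intervals. The second library of VIP-treated mouse 3, at 28.6, lies within the untreated range of 22.6 to 36.0.

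To see how the tuft cell markers respond to VIP in the whole epithelium, VIP-treated organoids were compared with untreated organoids of the same mice. The summed markers were at 17.6, 16.6, 17.1 and 15.2 CPM in VIP-treated mice 1 to 4, all below the 24.4 to 28.8 of the untreated cultures. Within mice the difference on the log2 scale averaged −0.67 ± 0.17 (SD, n = 3), a ratio of 0.63, with the VIP sample lower in 3 of 3 mice. Without the second library of VIP-treated mouse 3 it was −0.93 ± 0.55, again lower in 3 of 3, and without the first library of that culture −0.42 ± 0.40, lower in 2 of 3. The size of the difference thus moved with the library used for 1 of 3 mice. In bulk samples such as these, fewer tuft cells and less marker RNA per cell cannot be told apart.

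Gene by gene, none of the 7 markers that passed edgeR's filter on low counts had an adjusted p of 0.05 or less, where 4.82% of all 12727 genes did (edgeR's quasi-likelihood test with the mouse as a block and Benjamini-Hochberg adjustment). Of the 7, 3 had an unadjusted p under 0.05, beside 2090 of all 12727 genes. DESeq2's Wald test called 0 of the 7, with 0 at that unadjusted level, beside 893 of the 12727 genes. The fold changes of all 7 were below 0, with a median of −0.60 on the log2 scale, beside −0.00 over all genes. The leukotriene genes had the lowest fold changes. Ltc4s was at 6.24, 7.35 and 9.94 CPM in untreated mice 1 to 3 and at 3.88, 4.95, 4.11 and 3.29 in VIP-treated mice 1 to 4 (log2 fold change −0.85, SE 0.25, adjusted p = 0.0864 in edgeR). Alox5ap was at 2.95, 2.04 and 3.49 CPM untreated and at 1.23, 1.28, 1.90 and 2.01 with VIP (−0.94, SE 0.37, adjusted p = 0.209 in edgeR). In both genes every VIP-treated sample lay below every untreated one, as in 4.44% of all genes tested. Without the filter on low counts the adjusted p of Ltc4s was 0.0162, and over all alternatives it ran from 0.0162 to 0.883. Without the second library of VIP-treated mouse 3, where 1261 rather than 614 genes passed, Ltc4s was at −0.97 (adjusted p = 0.0591 in edgeR) and Alox5ap at −1.03 (adjusted p = 0.104).

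Rgs13 followed at −0.72 on the log2 scale (SE 0.32, adjusted p = 0.286 in edgeR), with UMI counts of 17, 28 and 21 untreated against 16, 13, 24 and 16 with VIP. In VIP-treated mouse 3, 19 of its 24 UMIs came from the second library, and without that library the fold change was −1.10 (adjusted p = 0.0908 in edgeR). Dclk1 behaved likewise, with −0.60 from both libraries (adjusted p = 0.428 in edgeR) and −1.03 without the second (adjusted p = 0.0674), as 16 of its 20 UMIs in that culture were in the second library. The markers that gave this library its untreated-like sum were thus mainly Dclk1, Rgs13 and Ltc4s, with 16, 19 and 17 UMIs of the 70. Trpm5 (−0.47), Pou2f3 (−0.44) and Avil (−0.04) had adjusted p values of 0.647 to 0.983 in edgeR. Without the second library of VIP-treated mouse 3 these were −0.51, −0.34 and −0.02 (adjusted p of 0.530 to 0.982). Avil, on 8 to 13 UMIs a sample with VIP, differed least. Sh2d6 did not pass the filter. Its counts were 14, 15 and 6 untreated and 9, 11, 4 and 9 with VIP. Counting by mouse, Pou2f3, Alox5ap, Rgs13, Sh2d6 and Ltc4s were lower with VIP in 3 of 3 mice, 5 of the 8 markers and 4 of the 7 tested, beside 17.7% of all genes tested, and 0 of the 8 were higher in every mouse.

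Markers of other cell types were measured beside this. The summed goblet cell list was higher with VIP in 3 of 3 mice (0.49 ± 0.10 on the log2 scale) and the summed enterocyte list lower in 3 of 3 (−0.23 ± 0.06), while the enteroendocrine list was higher in 2 of 3 (0.10 ± 0.18). Gene by gene, all 7 goblet markers had fold changes above 0. The 8 enterocyte markers split into 4 above and 4 below 0 (median −0.04), and so did the 8 enteroendocrine markers (median −0.01). Alox5ap, Ltc4s and Rgs13 are also known from leukocytes. The sum of 10 leukocyte markers was low in both groups, 5.31 to 8.86 CPM untreated and 6.52 to 10.8 with VIP, with Ptprc, Cd3e, Cd79a, Cpa3 and Mcpt1 at 0 in the untreated cultures. The myeloid markers were not at 0, and in untreated mice 1 to 3 Cd68 had 10, 13 and 6 UMIs, Itgam 13, 6 and 10, and Lyz2 6, 4 and 14, counts like those of single tuft cell markers. The part of these lists in the tuft cell result was not tested.

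In sorted Lgr5-EGFP+ cells of the 72 h experiment the question was the same, and the counts were too low for any single marker to enter the main test. None of the 8 passed the filter, and 171 UMIs in all were spread over 8 samples, so that single genes ranged from 0 to 10 UMIs a sample. A count of 0 in these libraries, taken to allow up to 3 UMIs, allows a level of up to 2.72 to 5.22 CPM, which is as high as most of the values seen. The summed markers held 18, 40, 24 and 21 UMIs in untreated mice 1 to 4 and 19, 17, 16 and 16 with VIP. Scaled to depth these were 30.4, 46.3, 39.5 and 33.4 CPM untreated against 17.2, 29.6, 27.2 and 25.3 with VIP. The ranges did not overlap, and the difference within mice averaged −0.60 ± 0.18 on the log2 scale (SD, n = 4), lower with VIP in 4 of 4. The Poisson intervals of the pair overlapped in every mouse, as with 20.7 to 51.03 against 14.5 to 41.2 CPM in mouse 4.

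No single marker was lower in all 4 mice there, beside 4.97% of all genes tested, and 0.0885% of 6778 genes passed the test. In edgeR without the filter all 8 fold changes were below 0, from −1.56 for Alox5ap (SE 1.01) to −0.10 for Dclk1 (SE 1.10), each with an adjusted p of 0.997. Alox5ap had 0, 5, 3 and 5 UMIs untreated and 2, 0, 1 and 1 with VIP, and Trpm5 had 2, 4, 5 and 0 against 1, 2, 1 and 1. Rgs13 had 3, 10, 6 and 3 untreated and 4 in each VIP sample. Leaving out any 1 of the 8 genes gave a summed difference between −0.66 and −0.49, lower in 4 of 4 mice each time. In the same samples the summed stem cell list was higher with VIP in 4 of 4 mice (0.32 ± 0.09) and the summed goblet and Paneth lists lower in 4 of 4 (−0.44 ± 0.27 and −0.35 ± 0.24). Gene by gene, the 5 stem cell markers had fold changes above 0 and the 6 goblet markers tested below 0. The 6 Paneth markers tested split into 3 above and 3 below 0 (median −0.05). The part of these lists in the tuft cell result was not tested. Whether the VIP effect on single markers differed from that in whole organoids could not be tested above the filter either. Without it, 0 of the 8 passed edgeR's test of the interaction of VIP and compartment (adjusted p of at least 0.984).

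The irradiation experiment held more tuft cell UMIs per sample, and its 8 samples without irradiation compare VIP for 48 h with no treatment. The summed markers held 153, 126, 196 and 150 UMIs in untreated mice 1 to 4 and 123, 54, 85 and 113 with VIP, or 96.1, 77.7, 109.0 and 98.3 against 92.4, 40.3, 54.4 and 68.8 CPM. The level was lower with VIP in 4 of 4 mice, by −0.63 ± 0.44 on the log2 scale (SD, n = 4). Leaving out 1 gene at a time gave −0.68 to −0.53, lower in 4 of 4 mice except without Rgs13 (−0.53, lower in 3 of 4). Mice differed in the size. Mouse 1 showed almost no difference (−0.06), whereas mice 2 and 3 had ratios of 0.52 and 0.50 (−0.95 and −1.004), and mouse 1 with VIP lay within the untreated range.

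Rgs13 and Sh2d6 carried the largest differences. Rgs13 was at 24.5, 20.4, 31.7 and 36.0 CPM in untreated mice 1 to 4 and at 19.5, 9.70, 12.8 and 20.1 with VIP (log2 fold change −0.85, SE 0.27, adjusted p = 0.144 in edgeR). Sh2d6 was at 11.3, 10.5, 14.5 and 16.4 untreated and at 9.76, 3.73, 3.84 and 8.53 with VIP (−1.02, SE 0.35, adjusted p = 0.189 in edgeR). In both, all VIP-treated samples lay below all untreated ones, as in 2.92% of genes tested, and both were lower in 4 of 4 mice, as in 9.88%. These were 2 of the 7 markers tested. None of the 7 passed the threshold, where 0.742% of 9976 genes did. By edgeR 2 of the 7 had an unadjusted p under 0.05, beside 1237 of the 9976 genes. By DESeq2's Wald test 2 of the 7 did, beside 674 of the 9976. DESeq2 gave an adjusted p for 0 of the 7 here, so it could make no call. Rgs13 passed in edgeR without the filter on low counts (adjusted p = 0.00756) and when only these 8 samples were fitted (adjusted p = 0.0228). Over all its alternatives its adjusted p ran from 0.00756 to 0.453.

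The other markers were closer to their untreated levels. Ltc4s (−0.54), Avil (−0.42), Dclk1 (−0.34) and Alox5ap (−0.31) were below 0 and Trpm5 (0.06) was not, with adjusted p values of 0.476 to 0.976 in edgeR. The median of the 7 was −0.42, beside −0.00 over all genes. Trpm5, with 4 to 11 UMIs a sample, was higher with VIP in 3 of 4 mice. By fold change alone, the order of the genes was not that of the whole organoids, where the leukotriene genes Ltc4s and Alox5ap came first among those tested. Sh2d6 was below the filter in whole organoids and at −0.82 (SE 0.42) without it. The difference in order was not tested. Pou2f3 was below the filter, with 10, 9, 7 and 12 UMIs untreated and 12, 1, 3 and 8 with VIP. Beside these values, the stem cell list was higher with VIP in 4 of 4 mice (0.50 ± 0.16), and the goblet, Paneth and enterocyte lists were lower in 4 of 4 (−0.31 ± 0.27, −0.36 ± 0.26 and −0.35 ± 0.31). The leukocyte markers summed to 2.62 to 12.6 CPM untreated and to 0.751 to 5.75 with VIP, with Cd79a, Cpa3 and Mcpt1 at 0 in both groups. Their part in the tuft cell result was not tested.

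After 6 Gy VIP-treated cells were again compared with untreated cells of the same mice. The summed markers were at 112.9, 135.7, 133.9 and 82.9 CPM in irradiated untreated mice 1 to 4 and at 130.5, 107.1, 97.1 and 59.8 in irradiated VIP-treated mice. VIP samples were lower in 3 of 4 mice, by −0.27 ± 0.32 on the log2 scale on average, and higher in mouse 1 (0.21). All 7 markers tested had fold changes below 0, from −0.47 for Trpm5 to −0.02 for Avil, with a median of −0.28, beside −0.00 over all genes. None passed the threshold, where 0.221% of genes did. By edgeR as by DESeq2 0 had an unadjusted p under 0.05, beside 574 and 259 of all 9976 genes. The interaction of VIP and irradiation, which tests whether the VIP effect differs with irradiation, called 0 markers, and 0% of all 9976 genes by edgeR, with 0 markers and 634 genes at an unadjusted p under 0.05. DESeq2 called 0 as well, with 0 markers and 266 genes at that level. Its largest value among the markers was 0.82 for Sh2d6 (SE 0.46, adjusted p = 0.839 in edgeR). The standard errors of the 7 markers in this test were 0.37 to 0.52. After irradiation the stem cell list was again higher with VIP in 4 of 4 mice (0.33 ± 0.13) and the enterocyte list lower in 4 of 4 (−0.40 ± 0.38).

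**Figure D3:**
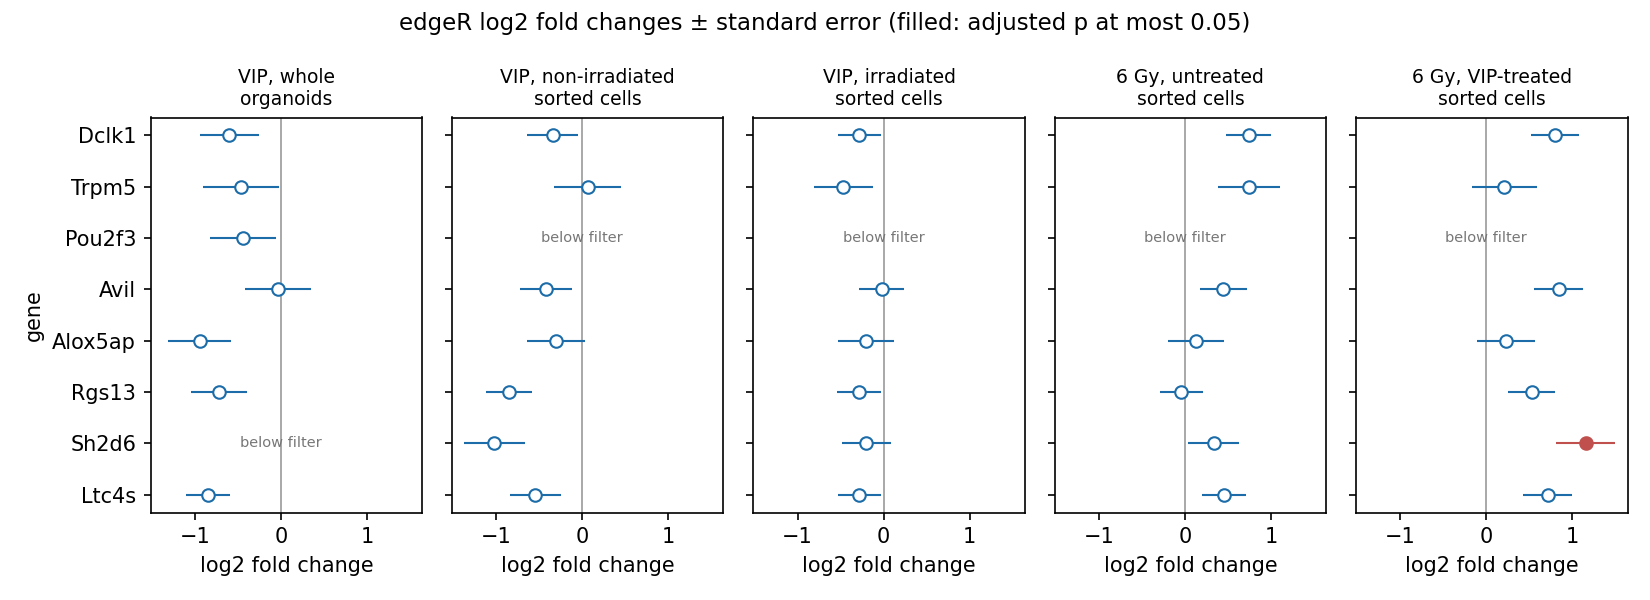
Log2 fold changes from edgeR with their standard errors (horizontal axis) for each of the 8 markers (vertical axis) in 5 comparisons. Filled points have an adjusted p of 0.05 or less. VIP fold changes lie at or below 0 but for Trpm5 at 0.06, and the single filled point is Sh2d6 after 6 Gy in VIP-treated cells, at 1.15.

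Irradiation itself was compared with no irradiation in the same experiment. In untreated cells the summed markers were higher after 6 Gy in 3 of 4 mice, by 0.27 ± 0.43 on the log2 scale, and lower in mouse 4 (−0.25). In VIP-treated cells they were higher in the same 3 mice, by 0.64 ± 0.67 over all 4, and again lower in mouse 4 (−0.20). The largest difference was in mouse 2, from 77.7 to 135.7 CPM untreated and from 40.3 to 107.1 with VIP. These irradiation contrasts share no samples with each other. Each shares a group with the VIP contrast without irradiation and another with the VIP contrast after 6 Gy.

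Sh2d6 in VIP-treated cells was the only marker past the threshold in any of these comparisons, 1 of 7 tested where 7.78% of all genes passed. It rose after 6 Gy from 9.76, 3.73, 3.84 and 8.53 CPM to 21.8, 15.98, 12.4 and 9.16 in mice 1 to 4, by 1.15 on the log2 scale (SE 0.34, adjusted p = 0.0367 in edgeR, higher in 4 of 4). In mouse 4 the difference was small. The non-irradiated VIP samples used here are also those of the VIP contrast without irradiation, where Sh2d6 was at −1.02. The call was lost with DESeq2's Wald test (adjusted p = 0.0685) and without mouse 1, 2 or 3 (adjusted p = 0.105, 0.174 and 0.152 in edgeR), and over all alternatives the adjusted p ran from 0.00336 to 0.174. In untreated cells Sh2d6 had a fold change of 0.33 (adjusted p = 0.647 in edgeR). The difference between the fold changes in VIP-treated and untreated cells is the interaction given above, and it did not pass.

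Dclk1 was at 18.2, 11.7, 22.2 and 10.5 CPM in untreated cells and at 24.1, 36.0, 27.9 and 16.04 after 6 Gy, higher in 4 of 4 mice (log2 fold change 0.74, SE 0.26, adjusted p = 0.117 in edgeR). With VIP it was at 18.8, 5.97, 10.2 and 14.0 without and at 28.2, 26.4, 21.2 and 12.9 with irradiation (0.80, SE 0.28, adjusted p = 0.0806 in edgeR), higher in 3 of 4. In both arms mouse 4 had the lowest level after 6 Gy. Without the filter on low counts Dclk1 passed in both arms (adjusted p = 0.0412 and 0.0223 in edgeR). Avil differed by 0.44 in untreated cells (adjusted p = 0.450) and by 0.84 in VIP-treated cells (SE 0.29, adjusted p = 0.0724 in edgeR), where every irradiated sample lay above every other, as in 6.5% of genes tested. Ltc4s differed by 0.45 and 0.71 (adjusted p = 0.401 and 0.139). The taste cascade channel Trpm5 differed by 0.74 in untreated cells (adjusted p = 0.297 in edgeR) on 4 to 13 UMIs a sample, and by 0.21 in VIP-treated cells. Alox5ap (0.13 and 0.23) and Rgs13 (−0.04 and 0.52) had adjusted p values of 0.282 to 0.963.

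By mouse, Dclk1, Trpm5, Avil and Ltc4s were higher after irradiation in 4 of 4 mice in untreated cells, 4 of the 7 tested, beside 10.5% of all genes. In VIP-treated cells these were Avil, Sh2d6 and Ltc4s, 3 of the 7 tested, beside 14.1%. The medians of the 7 fold changes were 0.44 and 0.71, beside −0.00 and 0.00 over all genes. In untreated cells 0 of the 7 passed, where 4.46% of all genes did. At an unadjusted p under 0.05 were 2 of the 7 by edgeR and 1 by DESeq2, beside 1668 and 1054 of all 9976 genes. DESeq2 called 0 of the 7. The goblet, Paneth, enteroendocrine and enterocyte lists were higher after 6 Gy in 4 of 4 mice in both arms, with the enteroendocrine list at 0.83 ± 0.45 and 1.14 ± 0.24, and the summed stem cell list was lower in 4 of 4 (−0.54 ± 0.15 and −0.71 ± 0.11). Of the 5 stem cell markers, 2 had fold changes above 0 in untreated cells and 1 in VIP-treated cells. In mouse 4 the goblet, Paneth, enteroendocrine and enterocyte lists were higher and the tuft cell sum was not. The sum of 8 mesenchymal and neuronal markers was 17.9 to 25.1 CPM without and 32.3 to 79.2 with irradiation in untreated cells, and 12.8 to 37.7 without and 28.6 to 53.5 with it in VIP-treated cells. The leukocyte sum after 6 Gy was 7.44 to 9.80 CPM in untreated and 5.59 to 12.8 in VIP-treated cells. The part of these lists in the marker values was not tested.

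**Figure D4:**
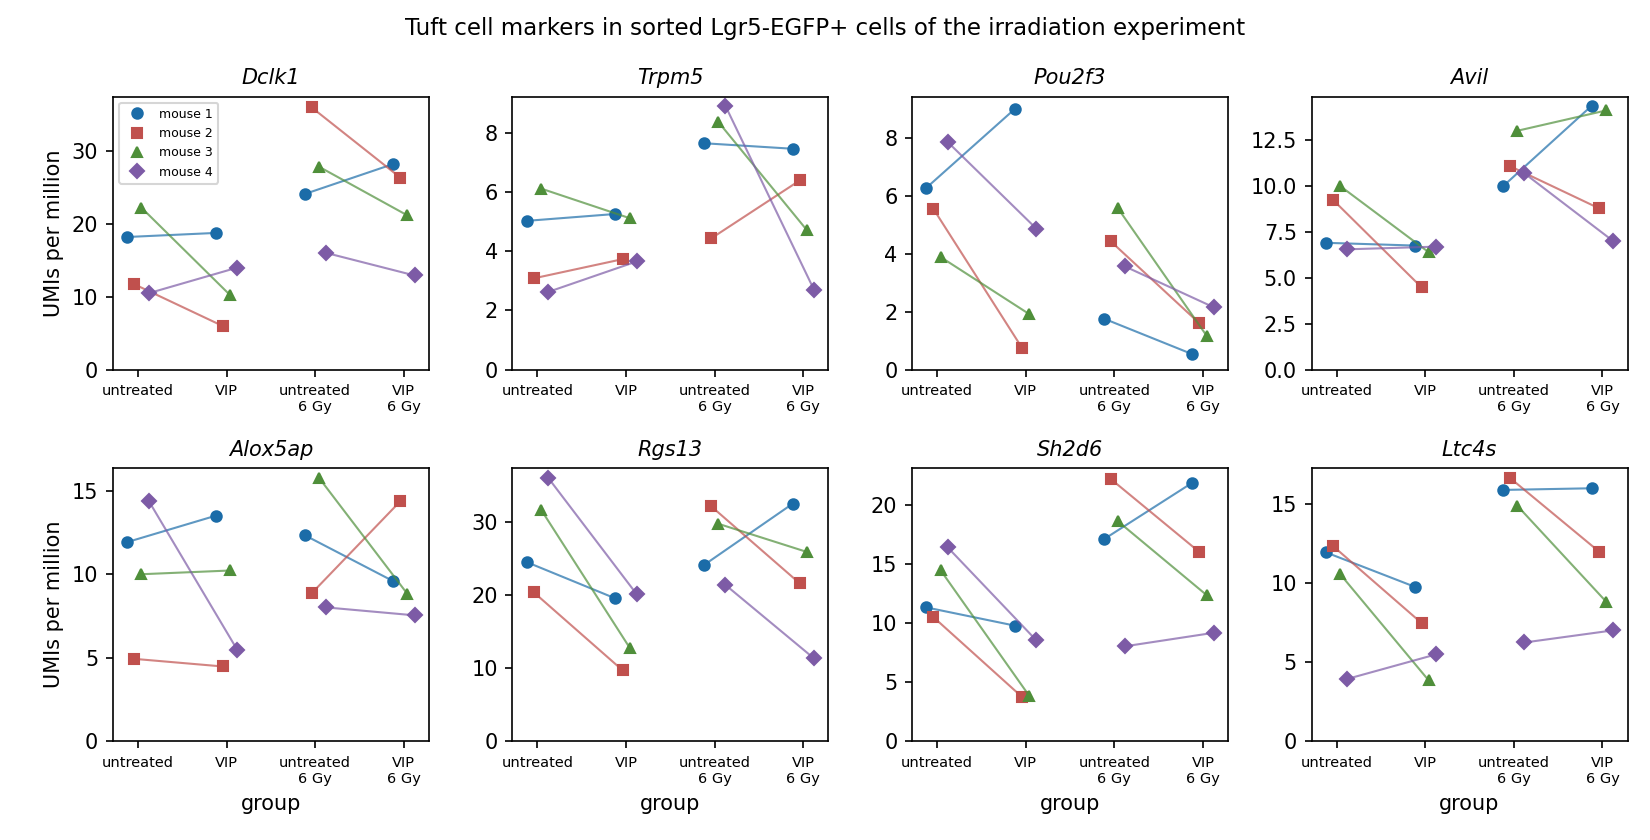
CPM (vertical axes, each starting at 0) of each marker in the 4 groups of the irradiation experiment (horizontal axes), with 1 point per mouse and lines joining untreated and VIP-treated samples. Rgs13 and Sh2d6 without irradiation are lower with VIP in 4 of 4 mice, and Pou2f3 is the marker whose levels are lowest with VIP after 6 Gy, at 0.533 to 2.16.

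The lineage factor Pou2f3 had, within the irradiation experiment, its lowest summed count in irradiated cells treated with VIP. Its counts were 10, 9, 7 and 12 UMIs in mice 1 to 4 untreated, 3, 8, 6 and 4 after 6 Gy, 12, 1, 3 and 8 with VIP, and 1, 2, 2 and 4 with both. It therefore had 38 UMIs over the untreated samples and 9 over those with VIP and 6 Gy, although the 7 other markers were higher after irradiation in 3 of 4 mice in each arm (0.32 ± 0.43 and 0.69 ± 0.65 on the log2 scale). As a share of the UMIs of all 8 markers, Pou2f3 made up 6.54%, 7.14%, 3.57% and 8% in untreated mice 1 to 4, and 1.56%, 3.27%, 4.17% and 4.30% after 6 Gy. With VIP the shares were 9.76%, 1.85%, 3.53% and 7.08% without and 0.408%, 1.49%, 1.21% and 3.60% with irradiation. The share was lower after 6 Gy in 3 of 4 untreated and in 4 of 4 VIP-treated mice, and lower with VIP in 4 of 4 irradiated mice. The exact binomial intervals of single samples were wide, as in VIP-treated mouse 2 without irradiation (0.0469% to 9.89%).

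Pou2f3 did not pass the filter on low counts in this experiment, so it has no value in the main test. In edgeR without the filter its fold changes were −0.65 (SE 0.41, adjusted p = 0.914) for irradiation in untreated cells, −1.57 (SE 0.52, adjusted p = 0.0749) for irradiation in VIP-treated cells, and −1.47 (SE 0.54, adjusted p = 0.715) for VIP in irradiated cells. None passed the threshold, and these contrasts share samples. Pou2f3 was lower with VIP in 4 of 4 irradiated mice, 1 of the 8 markers. Of the 7 tested, 0 were, beside 5.65% of all genes tested, a share over genes that passed the filter, which Pou2f3 did not. In whole organoids its share of the marker UMIs was 7.80% to 8.51% untreated and 7.41% to 12.5% with VIP.

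**Figure D5:**
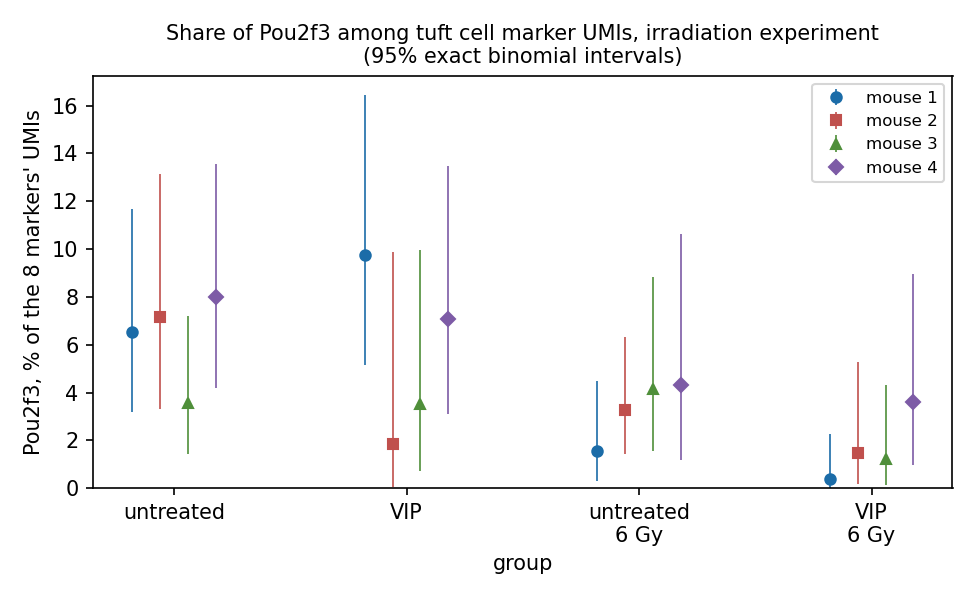
Pou2f3 as a percentage of the UMIs of all 8 markers (vertical axis) in the 4 groups of the irradiation experiment (horizontal axis), with 1 point per mouse and 95% exact binomial intervals. The shares range from 3.57% to 8% untreated and from 0.408% to 3.60% with VIP after 6 Gy.

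A wider list of 43 tuft cell genes, grouped as transcription factors, chemosensory genes, eicosanoid enzymes, genes of the type 2 circuit, and signalling or cytoskeletal genes, shows how far the 8 markers stand for others. In VIP-treated whole organoids 22 of the 43 could be tested. In edgeR 2 were higher past the threshold and 0 lower, where 4.82% of all genes passed. Among the 22, 6 had an unadjusted p under 0.05 in edgeR and 2 in DESeq2's Wald test, beside 2090 and 893 of all 12727 genes. Of the 6, Krt23, Il13ra1, Runx1 and Skap2 were higher. Hpgds (−1.15, adjusted p = 0.125 in edgeR) and Lrmp (−1.10, adjusted p = 0.197 in edgeR) were lower. Krt23, a keratin, rose by 1.13 on the log2 scale (SE 0.11, adjusted p = 4.37e-05), and Il13ra1, a subunit of the interleukin 13 receptor, rose by 0.66 (SE 0.16, adjusted p = 0.0254). They had 2870 and 1117 UMIs in these samples, more than the 783 of the 8 markers together. The median of the 22 was 0.05, with 14 above 0 and 8 below, beside −0.60 for the 7 of the 8 markers that were tested. Counts of the 22 in these samples ran from 63 UMIs for Matk to 9172 for Cd24a, with 1847 for Itpr3 and 1504 for Skap2. Which cells held these transcripts was not measured, so a change in Krt23 or Il13ra1 cannot be placed in tuft cells.

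In sorted cells of the 72 h experiment 6 of the 43 could be tested and 0 passed in edgeR. Of the 6, 2 had an unadjusted p under 0.05, beside 373 of all 6778 genes. In DESeq2 0 of the 6 passed, with 0 at that level, beside 74 of the 6778 genes. In the irradiation experiment 20 could be tested. VIP called 0 of them without irradiation, with 4 at an unadjusted p under 0.05 (3 by DESeq2), beside 1237 (674 by DESeq2) of all 9976 genes. After irradiation it called 0 of the 20, with 5 at that level (4 by DESeq2), beside 574 (259 by DESeq2). DESeq2 called 0 of the 20 in both comparisons, but without irradiation it gave an adjusted p for only 2 of the 20. Their fold changes were below 0 for 13 and 14 of the 20. After irradiation of untreated cells 2 of the 20 passed in edgeR, where 4.46% of all genes did. Krt23 rose by 0.59 (SE 0.10, adjusted p = 9.1e-04) and the adapter protein gene Fyb by 0.59 (SE 0.16, adjusted p = 0.0316 in edgeR). After irradiation of VIP-treated cells 2 of the 20 passed in edgeR, where 7.78% of all genes did. There Krt23 rose by 0.85 (SE 0.10, adjusted p = 2.11e-06) and Itpr3, a calcium release channel of the taste cascade, by 0.62 (SE 0.19, adjusted p = 0.0467 in edgeR). For the VIP by irradiation and the VIP by compartment terms, 0 of 20 and 0 of 11 tested genes passed in edgeR (2 and 1 at an unadjusted p under 0.05) and 0 in DESeq2 (1 and 1), which gave an adjusted p for 20 and 4 of them. At that unadjusted level were 634 of 9976 and 636 of 10186 genes in edgeR, and 266 and 501 in DESeq2. Of the tested genes of the wider list, DESeq2 called 1 for VIP in whole organoids, 1 for irradiation of untreated cells and 1 for irradiation of VIP-treated cells. Over all genes it called 300 of 12727, 281 of 9976 and 489 of 9976 in these comparisons.

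The genes most like the summed markers over all 31 samples were sought among 12993 genes with at least 100 UMIs, after centring log2 levels on the mean of each experiment. Map1a had the highest Pearson correlation (r = 0.72), followed by S100pbp (0.71), Ces2e (0.67), Ccpg1os (0.65) and Hpgds (0.63). Hpgds encodes a prostaglandin D synthase and is on the wider tuft cell list. Of the 26 genes of that list with enough UMIs, 6 were among the 50 most alike. Over these 26, r ran from −0.24 for Krt23 to 0.63 for Hpgds, with 0.14 for Il13ra1 and 0.56 for Lrmp. Among the 8 markers themselves, which are part of the sum, r ran from 0.31 for Pou2f3 to 0.87 for Rgs13. The 31 samples share mice and groups, and many of these genes have few UMIs (100 for Map1a), so the values only describe this set.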

How the data were processed

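RNA was measured in 37 libraries of 31 samples from 12 mice. The authors made poly(A) 3′ libraries with barcodes and UMIs, sequenced them and processed them with the Drop-seq pipeline (version 1), GRCm38 and GENCODE M25, and the raw UMI counts per gene are as deposited by the authors. Columns were matched to samples by their names. Technical libraries of a culture were summed.

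Counts were fitted with the quasi-likelihood test of edgeR 4.0.16 in R 4.3.3, separately per experiment, with TMM scaling, filterByExpr by group, the mouse as a block, as in the study's design, and Benjamini-Hochberg adjustment over all genes tested, at 0.05. DESeq2 1.42.0 was an alternative, beside other scalings, filters, left-out mice and libraries, and no block. The interaction of VIP with compartment was fitted on whole organoids and sorted cells together. The code was tested on simulated data. The mouse numbers pair samples because the labels give the same mouse in each condition. Deviations from group means correlated at 0.27 to 0.63 within a mouse in whole organoids, 0.03 to 0.21 in sorted cells and −0.07 to 0.16 in the irradiation experiment. Between different mice they correlated at −0.54 to 0.33, −0.14 to 0.15 and −0.20 to 0.20. In the irradiation experiment the range within a mouse thus lay inside the range between mice. Within-mouse differences of the summed markers are log2 ratios of CPM, given with their SD and no test.

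All 8 markers were named in every comparison, genes of the wider tuft cell list (43 genes) where they passed the threshold, at most 3 in each direction, and the 5 genes most like the sum. Goblet, Paneth, enteroendocrine, enterocyte, stem, proliferation, leukocyte, and mesenchymal and neuronal lists were summed for comparison. The proliferation list differed within mice by −0.09 to 0.13 on average. Members and lists were chosen with earlier results of these data known. Promoter sequences are from RefSeq, GRCm38.p6.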

Additional observations from a re-analysis of the deposited data

Results flagged for a closer look

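Dixon's ratio was taken in 63 sets, each a marker or the summed markers in 1 group of 4 samples. In 6 of the 63, 1 sample lay far from the others of its group. The cut is set for about 1 in 20 by chance, but this rate need not hold for low counts in sets that share samples. All 6 rest on 0 to 7 UMIs. In VIP-treated sorted cells of the 72 h experiment, Alox5ap in mouse 2 was at 0 CPM, against 1.58 to 1.81 in the others, and Dclk1 in mouse 1 was at 3.62, against 1.58 to 1.74. In untreated cells of that experiment Ltc4s in mouse 1 was at 10.1, against 7.95 to 8.22. In the irradiation experiment Avil in VIP-treated mouse 2 without irradiation was at 4.48, against 6.39 to 6.76, and Ltc4s in irradiated untreated mouse 4 was at 6.24, against 14.9 to 16.6. In whole organoids Sh2d6 in VIP-treated mouse 3 was at 0.632, against 1.59 to 1.76. The cause was not tested.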

How the results depend on the processing

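Of 417 alternative values for the fold changes of the markers, 393 kept their direction and side of the threshold. Without the filter on low counts 1 marker passed for VIP in whole organoids (Ltc4s), 1 for VIP without irradiation (Rgs13), 1 for irradiation of untreated cells (Dclk1) and 2 for irradiation of VIP-treated cells (Dclk1, Sh2d6). Of all genes, 979 of 27407 passed in the first of these fits, and 182, 567 and 872 of 27547 in the others. For VIP without irradiation DESeq2 gave no adjusted p for any of the 7 tested markers and is left out of the marker counts. Fitting only the 8 samples of VIP without irradiation gave 1 (Rgs13), beside 184 of 9147 genes. For irradiation of VIP-treated cells DESeq2 gave 0, beside 489 of 9976 genes. Leaving out a mouse gave 0 to 3 there, the 3 (Dclk1, Rgs13, Sh2d6) without mouse 4, where 426 of 10011 genes passed. Without mouse 1, 2 or 3, 691 of 9951, 474 of 10052 and 542 of 10036 genes passed. A minimum of 10 UMIs in every sample also gave 0 markers, beside 662 of 7338 genes. Sh2d6, with 5 UMIs in VIP-treated mouse 2 without irradiation, could not be tested under that minimum. The summed difference with VIP in whole organoids was −0.93 without the second library of VIP-treated mouse 3 and −0.42 without the first, after which 0 of all genes passed.

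Without the replicate block (the pairing by mouse) 1 marker passed for irradiation of VIP-treated cells, beside 642 of 9976 genes, and 0 in the other comparisons. For VIP in whole organoids 99 rather than 614 of all genes passed. Leaving out the block changed no call of a marker, since the 1 was Sh2d6 with and without it.

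Small fold changes changed sign when a mouse was left out. For VIP in whole organoids Avil ran from −0.034 to 0.047. For VIP without irradiation Trpm5 ran from −0.016 to 0.23 and Alox5ap from −0.53 to 0.069. For VIP after irradiation Avil ran from −0.26 to 0.14 and Alox5ap from −0.48 to 0.026. For irradiation of untreated cells Alox5ap ran from −0.062 to 0.43 and Rgs13 from −0.29 to 0.17, and in VIP-treated cells Alox5ap ran from −0.14 to 0.55. For the interaction of VIP and irradiation Dclk1 ran from −0.21 to 0.35 and Alox5ap from −0.27 to 0.46. The cause was not tested. Counts of 0 to 65 UMIs per gene and sample limit what single markers can show.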
